A study of Arabidopsis thaliana with 12 samples.

Results

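Class III peroxidases are secreted plant enzymes that use hydrogen peroxide to oxidise substrates in the cell wall and the vacuole. The genes described here are 60 loci of this family in Arabidopsis thaliana, taken as a list of loci and not by a cut on their signal. The list was chosen with earlier results of these data known. Of these, 51 could be paired with a probe set, each with a probe set of 1 gene, and they are called measured below. The 9 others (AT1G05240, AT1G05250, AT1G05260, AT1G14540, AT3G49120, AT5G06720, AT5G22410, AT5G42180 and AT5G67400) were not analysed here. The measured loci are 51 of 17481 probe sets that were tested.

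Total RNA came from pools of whole seedlings of ecotype Col-0, 1 Affymetrix Gene 1.0 ST array per sample. Wild type (WT) and rb10 seedlings grew for 5 days in darkness on diluted MS medium without sucrose, and each genotype was collected then (dark) or after 1 h of white light at 120 μmol per m2 and s (light). Each of the 4 groups has 3 arrays, labelled as biological replicates, and all 4 groups were etiolated and grown without sugar. The labels give rb10 as a name with no allele. Knowledge of the study from outside the labels makes it 1 mutant line of RAPTOR1B, a gene whose protein presents substrates to the growth kinase TOR. Values are log2 signals as deposited, a difference is in log2 with the standard error (SE) of a limma fit over all 12 arrays, n = 3 arrays a group, and a gene is called at an adjusted p under 0.05 over all 17481 probe sets.

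In the cell wall these peroxidases can work in opposite directions. They couple monolignols into lignin and cross-link structural proteins and phenolics, which stiffens the wall, and they can also release reactive oxygen that loosens it or feeds a defence burst. Many members are expressed mainly in roots, where members act in root hairs, in the root tip and in the lignified barrier of the endodermis. NADPH oxidases in the plasma membrane supply the superoxide from which their hydrogen peroxide is formed.

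One array stands against its label. RAPTOR1 (RAPTOR1B, AT3G08850), for which the place of the probes relative to any mutation is not given, had a signal between 11.58 and 11.84 in the 6 WT samples. In 5 rb10 samples it was between 10.89 and 11.13, but rb10 dark replicate 3 read 11.60. Over all tested probe sets that array correlated more closely with the WT dark arrays (mean Pearson r = 0.991) than with the other rb10 dark arrays (mean r = 0.980). Of the 22 peroxidase genes called between the genotypes after light, it lay nearer to the WT dark mean than to the other rb10 dark arrays for 20. Among all probe sets called after light the same held for 1358 of the 1700 higher and 1292 of the 1655 lower. Every array was kept under its label, and results are also given without this one, which leaves 2 rb10 dark arrays whose spread is borrowed from the shared estimate. Array medians over all 38408 probe sets were 6.72 to 6.82 in WT and 6.88 to 6.91 in rb10, apart from 6.78 on that array. Over the 17481 tested probe sets the median difference between the genotypes was -0.02 in the dark and -0.02 after light. Array signal gives no count of molecules, and 9 measured loci had a mean in the lowest 25% of tested probe sets, where no detection call was used.

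**Figure D1:**
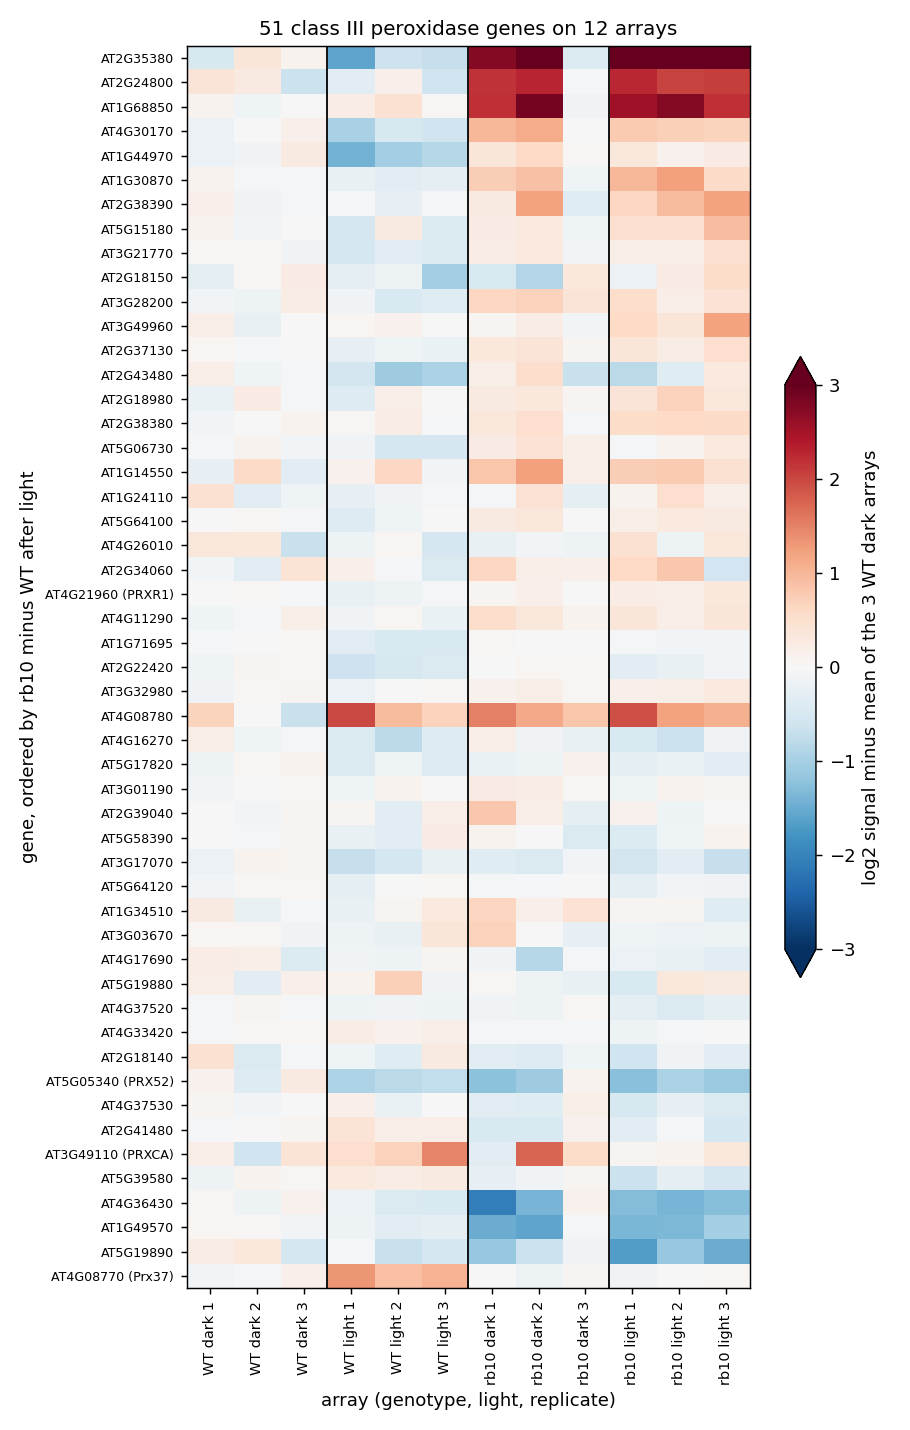
Log2 signal of 51 class III peroxidase genes (vertical axis) on each of the 12 arrays (horizontal axis), as the difference from the mean of the 3 WT dark arrays. Genes at the top are high on the rb10 light arrays and on rb10 dark replicates 1 and 2, rb10 dark replicate 3 looks like the WT dark arrays there, and AT4G08770 at the bottom is high on the 3 WT light arrays alone.

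After 1 h of light, rb10 seedlings had more signal than WT for 17 of the 51 measured peroxidase genes and less for 5. Across all tested probe sets 19.2% were called in this comparison (9.72% higher and 9.47% lower), against 43.1% of the peroxidase genes (33.3% higher and 9.8% lower). The median difference of the 51 was 0.29, against -0.02 over all probe sets, and the single differences ran from -1.11 to 4.07. The comparison asks how the mutant differs at the start of greening. Most of the genes that were higher are known in the annotation by a locus code alone.

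AT2G35380 differed most. It read 3.97, 4.93 and 4.86 on the WT light arrays and 8.53, 8.75 and 8.70 on the rb10 light arrays, so the groups lie far apart, and the difference was 4.07 (SE 0.73, adjusted p = 0.00393), a 16.8-fold higher signal in rb10. This fold is taken against dim WT signal, a mean of 4.59, where the lowest 25% of tested probe sets have means under 4.61. AT2G24800 read 4.77, 5.28 and 4.52 in WT and 7.38, 7.14 and 7.20 in rb10, higher by 2.39 (SE 0.53, adjusted p = 0.0106). For AT1G68850 the readings were 5.42, 5.65 and 5.23 in WT and 7.74, 7.95 and 7.40 in rb10, a difference of 2.26 (SE 0.57, adjusted p = 0.0192). In each of these genes every rb10 light array was above every WT light array by more than the spread inside either group. The fit shares its spread with the rb10 dark group and its odd array, and without that array the SEs became 0.28, 0.27 and 0.20.

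AT4G30170 read 8.82, 9.32 and 9.18 in WT and 10.57, 10.49 and 10.47 in rb10 after light, higher by 1.40 (SE 0.25, adjusted p = 0.00371). AT1G44970 read 7.74, 8.13 and 8.29 in WT and 9.50, 9.28 and 9.40 in rb10, higher by 1.34 (SE 0.18, adjusted p = 0.000868). This gene fell with light in WT, and that light response is described below. AT1G30870, a gene of root hair cells, read 3.63, 3.50 and 3.56 in WT and 4.85, 5.08 and 4.43 in rb10, higher by 1.22 (SE 0.24, adjusted p = 0.00574). AT2G38390 was at 5.19, 5.02 and 5.19 in WT and at 5.88, 6.21 and 6.46 in rb10, higher by 1.05 (SE 0.31, adjusted p = 0.0374). In AT5G15180, with 6.31, 7.09 and 6.40 in WT and 7.29, 7.29 and 7.74 in rb10, WT light replicate 2 came close to the rb10 arrays, and the difference was 0.84 (SE 0.21, adjusted p = 0.0187). The other 9 genes that were higher differed by 0.34 to 0.71. In all 17 the rb10 light arrays stood above the WT light arrays with no overlap, as in almost every probe set called in this comparison. The genotypes were apart in 34 of the 51 genes after light (66.7%), against 38.6% of all probe sets. The 9 were AT3G21770 (0.71), AT3G28200 (0.69), AT3G49960 (0.67), AT2G37130 (0.57), AT2G38380 (0.51), AT5G06730 (0.48), AT5G64100 (0.41), AT4G21960 (PRXR1, 0.39) and AT1G71695 (0.34). AT2G38380 is paired with a second probe set as well, which was not called after light.

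**Figure D2:**
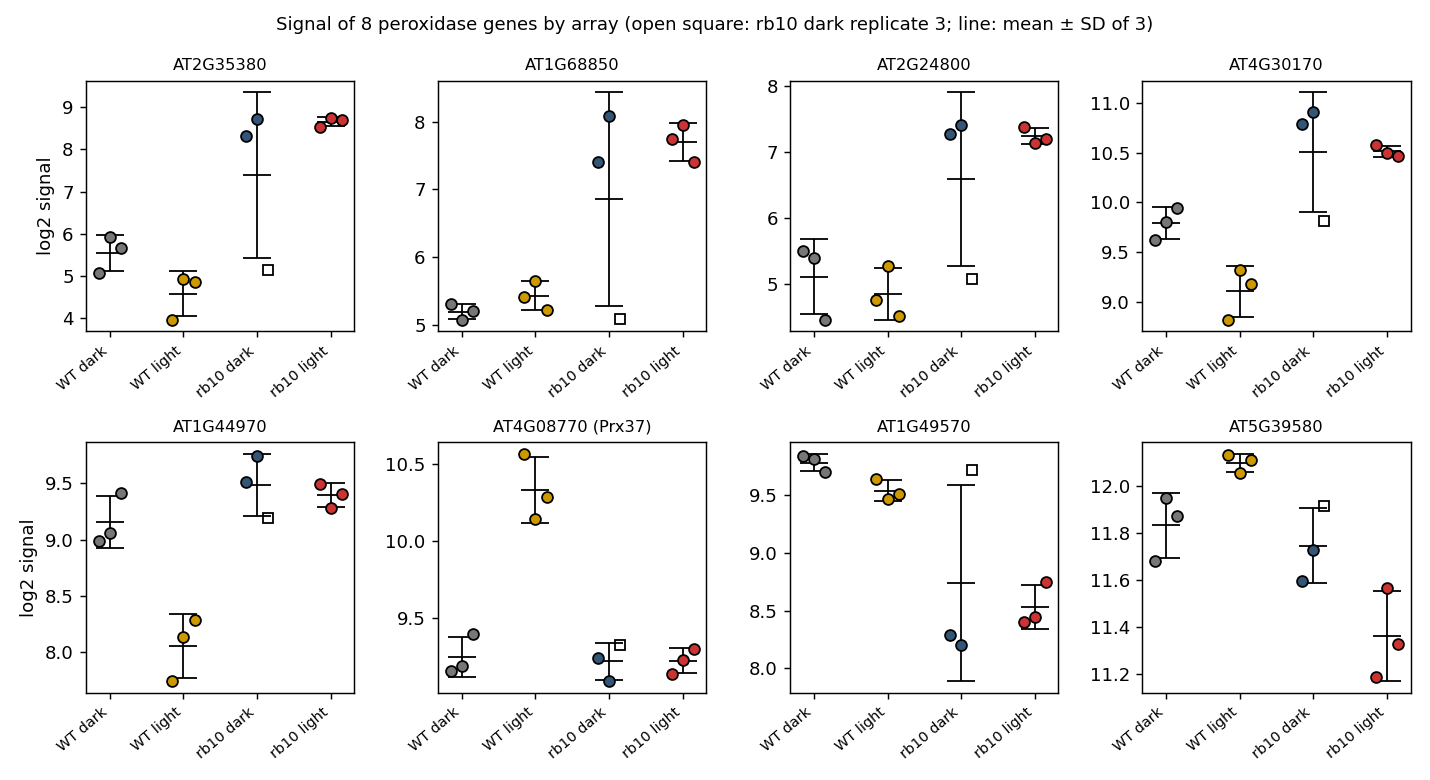
Log2 signal (vertical axes, which do not start at 0) of 8 peroxidase genes in the 4 groups, with a point for each array, the mean and SD of 3 arrays as lines, and rb10 dark replicate 3 as an open square. In AT2G35380, AT1G68850, AT2G24800 and AT1G49570 the open square sits at the WT dark level, and in AT4G08770 the WT light arrays (10.15 to 10.56) stand above all others.

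The lower group was led by AT4G08770 (Prx37), a gene whose overexpression is known to dwarf Arabidopsis plants. It read 10.56, 10.15 and 10.29 in WT after light and 9.14, 9.23 and 9.30 in rb10, lower in rb10 with a difference of -1.11 (SE 0.13, adjusted p = 0.000345). AT5G19890 read 7.04, 6.41 and 6.59 in WT and 5.42, 5.94 and 5.59 in rb10, a difference of -1.03 (SE 0.29, adjusted p = 0.0324). AT1G49570, at 9.63, 9.46 and 9.50 in WT and 8.40, 8.44 and 8.75 in rb10, differed by -1.002 (SE 0.32, adjusted p = 0.0488). In these 3 genes the rb10 light arrays all lay under the lowest WT light array, most closely in AT5G19890. AT5G39580, grouped with the defence genes, read 12.13, 12.05 and 12.11 in WT and 11.19, 11.57 and 11.33 in rb10, a difference of -0.74 (SE 0.13, adjusted p = 0.00313). AT2G41480 (PRX25), a peroxidase linked to lignin formation in stems, read 8.99, 8.77 and 8.78 in WT and 8.27, 8.54 and 8.07 in rb10, and differed by -0.55 (SE 0.17, adjusted p = 0.0437). The genotypes did not overlap in any of these 5 genes, which again holds for almost every probe set called in this comparison. The array in doubt enters this comparison through the spread alone, and when it was left out 25 of 51 were called (18 higher and 7 lower) against 23.6% of all probe sets (11.8% each way). The 3 added were AT4G11290 (0.39), AT4G36430 (-0.97, SE 0.17, adjusted p = 0.00243) and AT4G37530 (-0.39, SE 0.12, adjusted p = 0.0367). AT4G36430 had read 8.90, 8.64 and 8.62 in WT and 7.78, 7.68 and 7.79 in rb10. AT4G37530 had read 11.04, 10.68 and 10.90 and 10.39, 10.63 and 10.44, again with the rb10 arrays all below the WT arrays.

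The balance between higher and lower genes depended on scaling. With the array medians over all 38408 probe sets made equal, 11 of the 51 were higher and 7 lower. That is 61.1% of the called genes higher, against 77.3% as deposited, and 16 of the 22 calls were kept. Over the tested probe sets the higher share of calls went from 50.7% to 30.4%. Their median difference moved by -0.15, from -0.02 to -0.17. The number of calls also rested on single arrays, with 12 when WT light replicate 1 or WT light replicate 3 was left out, 14 without rb10 light replicate 1 and 13 without rb10 light replicate 3. All of these were among the 22. The share of all probe sets called without those arrays is not given here, so a fall particular to peroxidase genes was not tested. AT2G35380, AT2G24800, AT4G30170, AT1G44970 and AT4G08770 were called in each of the 21 alternatives run, and the calls of AT1G49570, AT2G38390, AT2G41480, AT3G49960, AT5G06730 and AT5G64100 were not made in 9 to 13 of them.

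**Figure D3:**
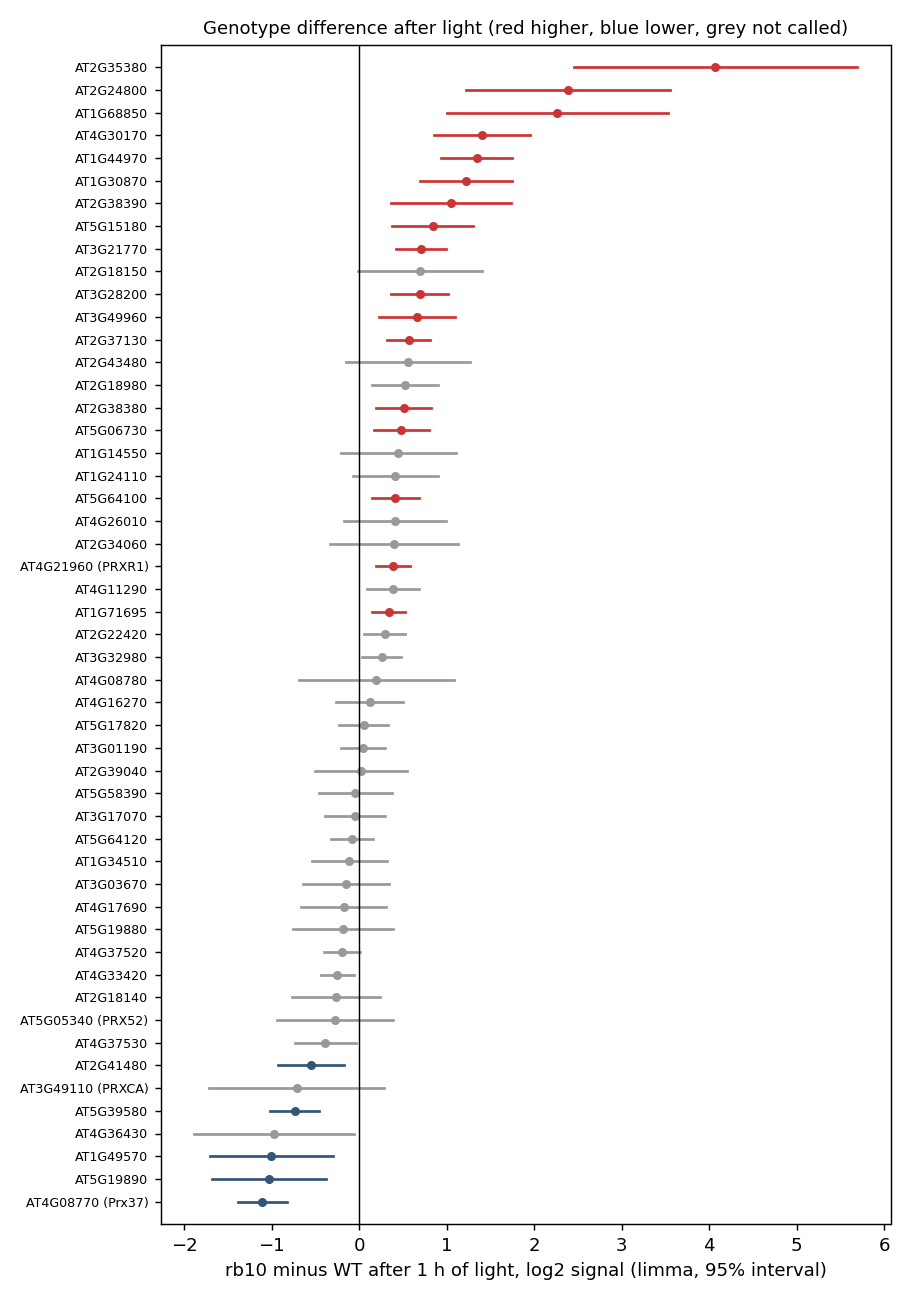
Difference between rb10 and WT after 1 h of light for each of the 51 peroxidase genes, in log2 signal with its 95% interval from limma over 12 arrays. The 17 genes in red were called higher in rb10 and the 5 in blue lower, with AT2G35380 at 4.07 and AT4G08770 at -1.11 at the ends.

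Of the 51 genes 29 were not called after light with every array, and their differences ran from -0.97 (AT4G36430) to 0.70 (AT2G18150). The genotypes overlapped in 17 of these and stood apart in 12, or 41.4% against 24.1% of all probe sets that were not called. Nearest to the threshold were AT2G18980 (0.53, SE 0.17, adjusted p = 0.0551), AT4G33420 (-0.25, SE 0.09, adjusted p = 0.0646) and AT4G11290 (0.39, SE 0.13, adjusted p = 0.0682), each with no overlap. AT4G33420 and PRX71 were also the steadiest members, with a range over all 12 arrays of 0.36 and 0.34, where AT2G35380 spanned 4.78. Intervals were narrow for some genes that did not pass. That of AT3G01190 was -0.20 to 0.29 and that of AT5G17820 -0.23 to 0.33, while that of AT4G08780 ran from -0.69 to 1.08.

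Some members can be grouped by a role known in Arabidopsis. In each such group 40% to 50% of the measured genes were called after light. This is near the 43.1% of the whole 51, where 19.2% of all probe sets were called. Of 8 root hair and epidermis genes 4 were measured, of which AT1G30870 and AT3G49960 were higher in rb10 after light, while AT4G26010 (0.41) and AT1G34510 (-0.11) did not pass. All 4 had a mean in the lowest 25% of probe sets. Of 8 lignin and barrier genes 6 were measured, and AT1G68850 and AT1G71695 were higher and PRX25 lower. PRX52 (AT5G05340), known for lignin formation in stems, differed by -0.28 (95% interval -0.94 to 0.38), and PRX71 (AT5G64120), known to restrict cell growth, by -0.08 (95% interval -0.32 to 0.16). In the group of defence and oxidative burst genes 4 of 6 were measured, with AT2G37130 higher and AT5G39580 lower. The gene in it with the best known part in the burst, PRXCA (PRX33, AT3G49110), read 3.75, 3.93 and 4.70 in WT and 3.31, 3.33 and 3.59 in rb10, and its difference of -0.71 did not pass (95% interval -1.72 to 0.29). All 5 genes grouped as root tip genes were measured, and AT1G44970 was higher and AT5G19890 lower. Those from root tips on which a repressor of peroxidase genes is known to act, AT4G11290, AT4G16270 and AT5G17820, differed by 0.39, 0.12 and 0.05 and did not pass with every array, and with equal array medians AT4G16270 and AT5G17820 were at -0.03 and -0.10. Samples were whole seedlings, so more cells of a type and more RNA per cell cannot be told apart in any of these values.

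In the dark, whether any peroxidase gene was called between the genotypes rested on the array in doubt. The question was how rb10 differs after 5 days without light. With every array under its label 0 of 51 peroxidase genes were called by limma, against 0.00572% of all probe sets, while 12 had an unadjusted p under 0.05 (23.5%, against 14.9% of all probe sets). Other settings of limma with all 12 arrays also called 0. The genotypes were apart in the dark in 5 of the 51 genes (9.8%), against 16% of all probe sets, with every array under its label. When the array in doubt was left out, 7 were higher in rb10 and 3 lower. These are 13.7% and 5.88% of the 51, against 5.68% and 4.39% of all probe sets, or 19.6% against 10.1% in either direction, and the median difference was 0.20 against -0.03 over all probe sets.

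AT2G35380 again differed most. The WT dark arrays read 5.07, 5.92 and 5.66 and the rb10 dark arrays 8.31, 8.71 and 5.14. Here, as in the genes that follow, the last value of rb10 is the array in doubt, and without it the difference was 2.96 (SE 0.31, adjusted p = 0.000442). With it the difference was 1.84, with an SE of 0.73 and an adjusted p of 0.295. AT1G68850 read 5.31, 5.08 and 5.21 in WT and 7.41, 8.08 and 5.09 in rb10, 2.54 higher without that array (SE 0.22, adjusted p = 0.000164). For AT2G24800 the arrays read 5.50, 5.39 and 4.46 in WT and 7.28, 7.41 and 5.08 in rb10, a difference of 2.23 without it (SE 0.30, adjusted p = 0.00194). In all 3 the first rb10 arrays were far above WT and the last was inside the WT range. AT4G30170 read 9.62, 9.80 and 9.95 in WT and 10.79, 10.91 and 9.81 in rb10, higher by 1.06 without the array (SE 0.15, adjusted p = 0.00282). For AT1G30870 the values were 3.95, 3.79 and 3.81 in WT and 4.58, 4.73 and 3.73 in rb10, a difference of 0.81 on the same terms (SE 0.17, adjusted p = 0.016). The smallest of these differences belonged to AT3G28200 and AT2G38380. AT3G28200 read 9.41, 9.35 and 9.70 in WT and 10.11, 10.18 and 9.89 in rb10 (0.65, SE 0.16, adjusted p = 0.0302), and was the one of the 7 in which all 3 rb10 dark arrays lay above WT. AT2G38380 read 10.75, 10.83 and 10.96 in WT and 11.19, 11.36 and 10.79 in rb10 (0.43, SE 0.11, adjusted p = 0.0442).

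Peroxidase genes were also lower in rb10 in the dark on the same terms. AT4G36430 read 9.10, 8.92 and 9.21 in WT and 6.99, 7.68 and 9.20 in rb10, a difference of -1.74 without the last array (SE 0.19, adjusted p = 0.000502). AT1G49570 read 9.84, 9.81 and 9.69 and 8.29, 8.20 and 9.71, a difference of -1.53 (SE 0.13, adjusted p = 0.000123). PRX52 read 5.93, 5.43 and 6.07 and 4.57, 4.75 and 5.91, a difference of -1.15 (SE 0.19, adjusted p = 0.00459). In each, rb10 dark replicates 1 and 2 were below all WT dark arrays and replicate 3 was among them. With every array the differences of these 10 genes had the same signs, from 0.27 (AT2G38380) to 1.84 (AT2G35380) in the 7 and from -1.12 (AT4G36430) to -0.73 (PRX52) in the 3, with adjusted p from 0.242 to 0.405 in limma.

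The dark and light comparisons between the genotypes share no array, so each can be read beside the other. All 17 genes that were higher in rb10 after light had a positive difference in the dark, and all 5 that were lower had a negative one, with and without the array in doubt. Among all probe sets called after light 89.4% of those higher and 81.6% of those lower kept their sign in the dark with every array, and 91.8% and 82.7% without the array in doubt. The median difference of the 17 was 0.71 after light and 0.29 in the dark, or 0.43 without that array. With array medians made equal, the dark difference of AT1G71695 turned negative (from 0.0081 to -0.065), and the other 21 kept their sign. The dark difference was close to 0 in Prx37 (-0.03, 95% interval -0.31 to 0.25), AT1G71695 (0.01, 95% interval -0.18 to 0.20), AT3G49960 (0.07, 95% interval -0.36 to 0.51) and AT5G39580 (-0.09, 95% interval -0.37 to 0.19).

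**Figure D4:**
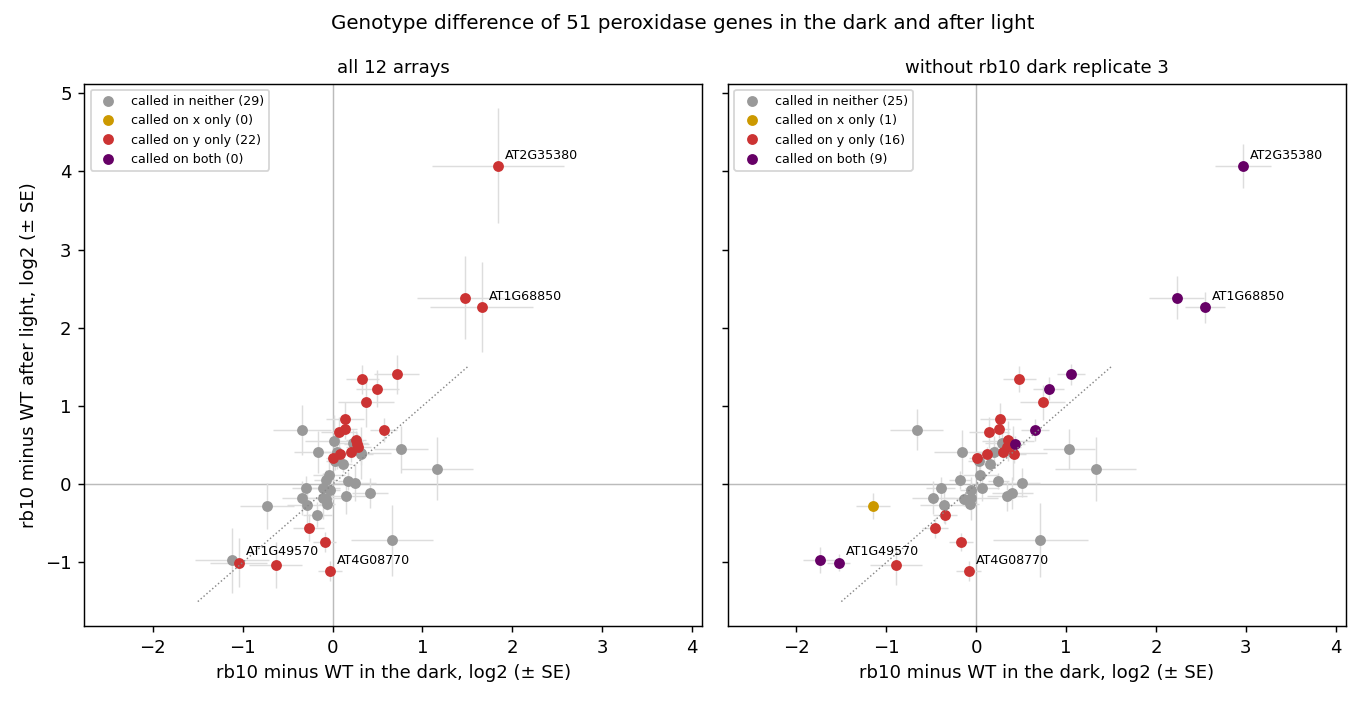
Difference between rb10 and WT in the dark (horizontal axis) and after light (vertical axis) for 51 peroxidase genes, in log2 signal with SE bars, for all 12 arrays (left) and without rb10 dark replicate 3 (right). The dotted line marks equal differences. On the left 22 genes are called after light and 0 in the dark, on the right 9 are called in both, and AT4G08770 lies near 0 on the horizontal axis in each.

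The next question was how etiolated WT seedlings respond at first light. After 1 h of light 4 of 51 peroxidase genes were called, 7.84% against 6.89% of all probe sets and so near the background, 1 up (1.96%, against 4.62%) and 3 down (5.88%, against 2.27%). The rise was that of Prx37 (AT4G08770), from 9.16, 9.19 and 9.40 in the dark to 10.56, 10.15 and 10.29 after light, a change of 1.08 (SE 0.13, adjusted p = 0.00035), or 2.12-fold. AT1G44970 fell from 8.98, 9.06 and 9.42 to 7.74, 8.13 and 8.29, a change of -1.10 (SE 0.18, adjusted p = 0.00334). AT2G22420, grouped with the lignin genes, fell from 7.98, 8.20 and 8.15 to 7.50, 7.63 and 7.69, a change of -0.51 (SE 0.11, adjusted p = 0.0141). AT1G71695 fell from 11.69, 11.75 and 11.80 to 11.43, 11.30 and 11.28, a change of -0.41 (SE 0.09, adjusted p = 0.0134). In all 4 genes the light arrays stood clear of the dark arrays, as in almost every probe set called for light in WT.

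With the array in doubt left out, which again bears on the spread alone, 7 were called in WT, 1 up and 6 down, against 8.78% of all probe sets (5.3% up and 3.47% down). PRX52 went from 5.93, 5.43 and 6.07 to 4.88, 5.01 and 5.07 (-0.82, SE 0.17, adjusted p = 0.0121). AT4G30170 went from 9.62, 9.80 and 9.95 to 8.82, 9.32 and 9.18 (-0.68, SE 0.14, adjusted p = 0.0128), and AT3G21770 from 10.74, 10.76 and 10.58 to 10.17, 10.37 and 10.27 (-0.42, SE 0.11, adjusted p = 0.0458). The count was 2 without WT dark replicate 2 or WT dark replicate 3. The WT light arrays also enter the comparison of genotypes after light, so AT1G44970, AT1G71695, AT4G30170 and AT3G21770, higher in rb10 there, and AT4G08770, lower there, are not separate evidence of either.

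In rb10 the same hour of light gave no call: 0 of 51 (limma), against 7.17% of all probe sets (3.42% up and 3.75% down). There were 8 at an unadjusted p under 0.05 (15.7%, against 20% of all probe sets). Without the array in doubt it was again 0 of 51, against 6.34% (3.17% up and 3.16% down), with 8 at an unadjusted p under 0.05 (15.7%, against 17.9%). Of the other settings, a trended and robust prior called AT5G39580 (-0.38), and leaving out rb10 dark replicate 2 or rb10 light replicate 2 called 1 gene each, AT2G38390 (0.96) and AT3G49960 (0.83). Prx37 read 9.24, 9.09 and 9.33 in rb10 in the dark and 9.14, 9.23 and 9.30 after light, a change of 0.0042 with a 95% interval of -0.28 to 0.29, and its groups overlap. The light effect on AT1G44970 in rb10 was -0.09 (95% interval -0.49 to 0.31), and that on AT1G71695 -0.08 (95% interval -0.27 to 0.11). For AT2G22420 it was -0.25 (95% interval -0.48 to -0.01), and the change in WT lies outside this interval. The difference of the light effects on that gene did not pass (0.26, SE 0.15, adjusted p = 0.525).

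The test of the difference between the light effects called Prx37 alone among the 51, or 1.96% against 2.17% of all probe sets (0.503% higher and 1.67% lower). Without the array in doubt it was again Prx37 alone, against 2.25% (0.589% higher and 1.66% lower). The light effect in rb10 was lower than that in WT by -1.08 (SE 0.18, adjusted p = 0.0122), or -1.02 without the array in doubt (SE 0.19, adjusted p = 0.0239). For AT1G44970 the difference of the effects was 1.01 (SE 0.26, adjusted p = 0.0855) and for AT5G39580 -0.65 (SE 0.18, adjusted p = 0.117), neither of them called. A trended and robust prior called both of these and AT1G71695 (0.33) as well as Prx37, 4 in all.

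**Figure D5:**
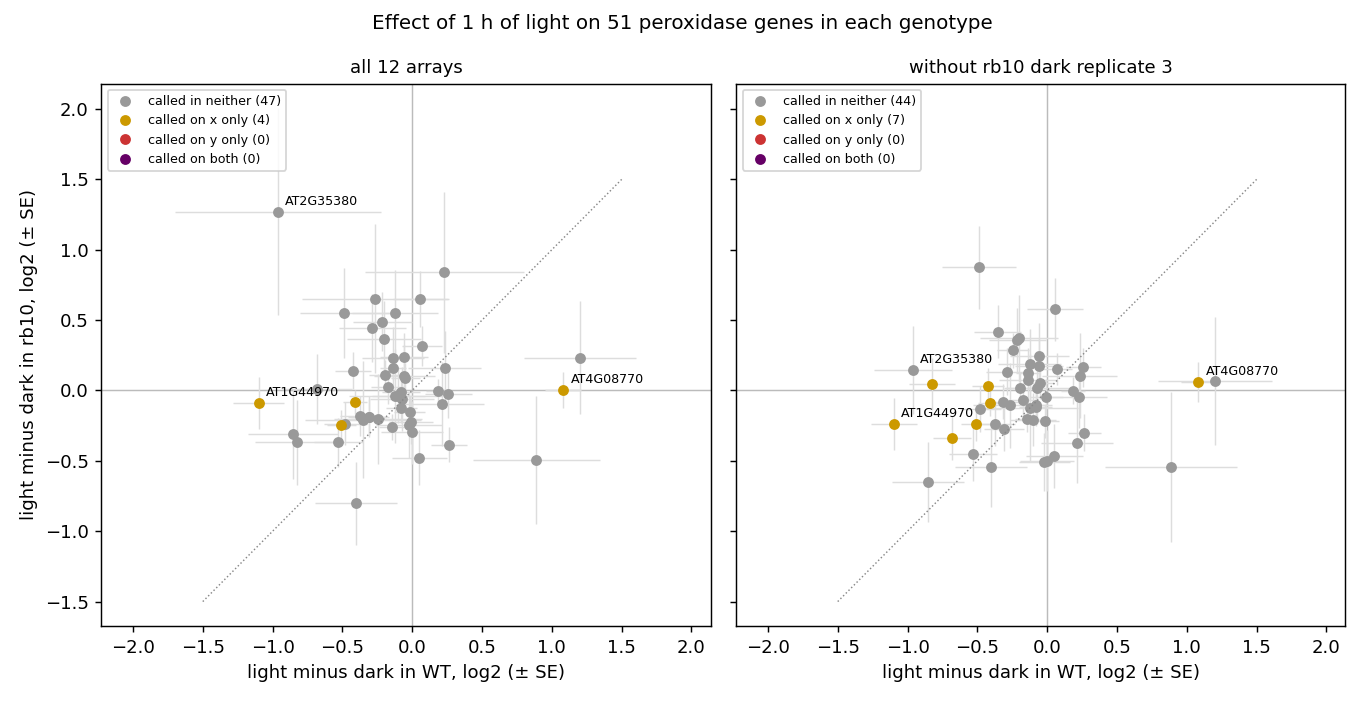
Change after 1 h of light in WT (horizontal axis) and in rb10 (vertical axis) for 51 peroxidase genes, in log2 signal with SE bars, for all 12 arrays (left) and without rb10 dark replicate 3 (right). The dotted line marks equal changes, 4 genes on the left and 7 on the right are called in WT, none is called in rb10, and AT4G08770 lies at 1.08 in WT and near 0 in rb10.

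Peroxidase genes often lie side by side in this genome. In the annotation 14 pairs of 73 loci of the family (the 60 and 13 more) are neighbours with at most 2 protein-coding genes between them, and both were measured in 9. Neighbours can share sequence, and how far their probes read each other was not tested. Next to Prx37, AT4G08780 read 5.20, 4.53 and 3.85 in WT in the dark and 6.50, 5.47 and 5.21 after light, a change of 1.20 that did not pass in the fit without a replicate block (SE 0.40, adjusted p = 0.116), with arrays of each group spread widely. In rb10 it read 6.04, 5.67 and 5.36 in the dark and 6.46, 5.73 and 5.58 after light, with overlap. Its difference of the light effects was -0.97 (SE 0.57, adjusted p = 0.533). AT2G38380, by the probe set read here and not by its second, and AT2G38390 were both called higher in rb10 after light (0.51 and 1.05). AT5G19890 was lower there, and its neighbour AT5G19880 differed by -0.18 (95% interval -0.76 to 0.39). AT4G37520 and AT4G37530 differed by -0.19 and -0.39, and neither passed with every array.

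The 13 further class III loci, a list drawn from the rest of the family, were all measured. After light 4 of them were higher in rb10 and 0 lower (30.8% called, against 9.72% of all probe sets higher and 9.47% lower): AT5G24070 by 1.23 (SE 0.35, adjusted p = 0.0318), AT5G14130 by 1.15 (SE 0.25, adjusted p = 0.00945), AT5G51890 by 0.72 (SE 0.14, adjusted p = 0.00674) and 1 other by 0.52. None of the 13 was called by limma in the other comparisons. With every array the share at an unadjusted p under 0.05 was 7.69% for light in WT (18.9% of all probe sets), 15.4% for light in rb10 (20%), 23.1% for the genotypes in the dark (14.9%) and 23.1% for the difference of the light effects (12.6%). The median after light was 0.12.

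Few genes that work with these enzymes could be paired. Of 10 NADPH oxidase genes 3 were measured, and AT1G19230, whose probe set also reads AT1G19240, rose with light in WT by 0.55 (SE 0.14, adjusted p = 0.0397). Of 17 laccases, which polymerise lignin with oxygen in place of hydrogen peroxide, 2 were measured, and LAC16 was higher in rb10 after light by 0.95 (SE 0.25, adjusted p = 0.0242). In monolignol synthesis 2 of 18 genes were measured. CCR2, a cinnamoyl-CoA reductase, rose in WT by 2.30 (SE 0.23, adjusted p = 0.000115) and was lower in rb10 after light (-0.92, SE 0.23, adjusted p = 0.0199), with a difference of the light effects of -1.57 (SE 0.33, adjusted p = 0.0358). In the dark CCR2 was higher in rb10, by 0.65 with every array (not called) and by 0.86 without the array in doubt (called). HCT, an acyltransferase of the same pathway, was not called in any of the 5 comparisons with every array. None of 14 genes of ascorbate peroxidases, glutathione peroxidases and catalases could be paired.

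Cell type markers were also thinly covered, and their part in the results was not tested. For root hair cells 2 of 18 markers were measured, EXPA7 and EXPA18, and 0 were called. The sum of their linear signals was 47.1 to 54.4 on the WT light arrays and 59.3 to 94.5 on the rb10 light arrays, and 39.9 to 61.8 and 43.1 to 84.0 in the dark. For the endodermal and suberin barrier 2 of 21 were measured, with sums of 2579.6 to 2767 in WT and 2424 to 2769 in rb10 after light, and GSO1, a receptor needed for barrier closure, was higher in rb10 (0.54, SE 0.15, adjusted p = 0.0257). The other, AT1G61590, differed by -0.25 and did not pass (SE 0.11, adjusted p = 0.135). In the dark these sums were 2869 to 2942 in WT and 2411 to 3049.8 in rb10. For photosynthetic shoot cells 3 of 15 were measured, with sums of 4039 to 4709 in WT and 4500.1 to 5466 in rb10 after light, and 3287 to 4369.6 and 2302 to 4359 in the dark. These 3 did not move together after light. RCA, the activase of Rubisco, was higher in rb10 (0.48, SE 0.11, adjusted p = 0.0129). LHCB4.1, a light-harvesting protein, differed by -0.48 (SE 0.16, adjusted p = 0.0551), and was called lower without the array in doubt (adjusted p = 0.00958). LHB1B2, another such protein, differed by 0.24 (SE 0.35, adjusted p = 0.693). In the dark without that array LHB1B2 (-1.09) and LHCB4.1 (-0.46) were lower in rb10. No probe set of any array was at 0, as the lowest values of the arrays were 1.26 to 1.55, so signal of a marker does not show that its cell type was present. EXPA18 was dim, with group means of 3.89 to 4.63, where the lowest 25% of tested probe sets have means under 4.61.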

How the data were processed

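The authors deposited log2 signals per probe set for 12 arrays. Per the submitters' processing notes RMA and GCRMA were used. The notes name no version and do not say which method made the deposited values, which were not normalized again. The genome build is not given in the sources used here, so no coordinates are printed. Of 38408 probe sets, 16722 were paired with 1 gene and 759 with several, through identifiers matched to a table of the TAIR10.1 annotation, and these 17481 were tested.

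One model of 4 group means took in every array, using limma 3.58.1 (R 4.3.3), with 8 residual degrees of freedom to which the prior added 2.79. No filter on signal was set. P-values were adjusted by Benjamini-Hochberg over the 17481 within each of 5 comparisons, and intervals are the model's 95% intervals. They measure the spread between these samples, whose small number limits their precision. A peroxidase gene was read from its probe set of 1 gene. AT2G38380 is paired with 2 probe sets, of which 1 was read. Values on each array are given for the called members with the 8 largest rises and 8 largest falls in a comparison, with every array and without rb10 dark replicate 3. Up to 3 called genes are named from each companion list. The genes, the lists and these rules were chosen with earlier results of these data known. The script was tested on simulated data. Alternatives were a replicate block, the compared groups alone, equal array medians, a second quantile normalization, a filter on dim probe sets, every probe set, a trended robust prior, a minimum fold of 2, every probe set of a member, and leaving out each array. Figures were drawn with matplotlib 3.10.9.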

Additional observations from a re-analysis of the deposited data

Results flagged for a closer look

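The light effect on Prx37 (AT4G08770) differed between the genotypes by the test of the difference itself, rb10 minus WT -1.08 in log2 (SE 0.18, limma adjusted p = 0.0122). Each of the 3 WT light arrays was above each of the 9 others, a pattern whose share among all probe sets is not given here. The call was made in all 20 alternatives run, with values from -1.17 to -0.96 and adjusted p from 0.00272 to 0.0357. With 3 arrays a group, single arrays were not tested as outliers.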

How the results depend on the processing

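The 33 results followed on named peroxidase genes were called with every array or without rb10 dark replicate 3. Each kept its direction in every alternative run for it. Many alternatives, such as a trended prior or leaving out an array of a group not compared, left the difference itself unchanged. These could not turn a direction. Many calls did not hold. The 10 in the dark, AT4G30170 for light in WT and AT4G37530 after light were called in 1 alternative, without rb10 dark replicate 3. AT4G36430 after light, and PRX52 and AT3G21770 for light in WT, were called in 2 of 21. Of the 29 genes not called after light, equal array medians turned the sign of 4 (AT2G39040, AT3G01190, AT4G16270 and AT5G17820) and a second quantile normalization that of 3. A minimum fold of 2 left 2 calls for light in WT and 10 for rb10 against WT after light. A trended and robust prior gave 1 call for light in rb10 and 4 for the difference of the light effects. Leaving out single arrays gave 2 to 7 calls for light in WT, 0 to 1 for light in rb10, 0 to 10 for rb10 against WT in the dark, 12 to 25 for rb10 against WT after light, and 1 for the difference of the light effects. The 10 in the dark came without rb10 dark replicate 3, as did the 7 and the 25. For light in WT the called share then rose from 7.84% to 13.7% of peroxidase genes and from 6.89% to 8.78% of all probe sets. In the dark these shares rose from 0% to 19.6% and from 0.00572% to 10.1%. After light they rose from 43.1% to 49% and from 19.2% to 23.6%. Shares of all probe sets are not given here for the other counts, so those do not tell whether peroxidase genes changed more. Causes of these changes were not tested.

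The labels state no pairing of the replicate numbers. Deviations of samples with the same number correlated between -0.022 and 0.073, and 0 of 12 pairs were over 0.1. These values are taken over all tested probe sets and do not show whether single genes share a replicate effect. A sample correlated best with its own number in 11 of 24 cases. With a replicate block the calls were 5 for light in WT, 0 for light in rb10, 0 in the dark, 17 after light (16 of them among the 22) and 1 for the difference of the light effects. The share of all probe sets called with the block is not given here, so these counts are not set against it. The block changed the call of AT4G08780 for light in WT, which passed with it (1.20, SE 0.16, limma adjusted p = 0.00196). Members without a named effect past the threshold cannot be taken as unchanged, since with 3 arrays a group the intervals are wide, and signal near background limits the 9 members in the lowest 25%.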
